A study of Mus musculus with 6 samples.

Results

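The PGC-1 family of transcriptional coactivators and the factors it works with in mitochondrial biogenesis, 10 genes in all, were followed in mouse liver after inosine. They were taken by gene symbol from the deposited gene table: the 3 coactivator genes Pprc1, Ppargc1a and Ppargc1b, the transcription factor genes Nrf1, Gabpa and Esrra, and Tfam, Tfb1m, Tfb2m and Polrmt, whose products act in transcription of mitochondrial DNA or, for Tfb1m, on the mitochondrial ribosome. All 10 were found among 16375 genes, and all 10 passed the filter on low counts that left 12326 genes. The libraries were made from total RNA of whole liver, 3 from mice given inosine by intraperitoneal injection and 3 from control mice. Inosine is the purine nucleoside formed when adenosine is deaminated, and the series title links it to RNA editing in liver and to the wasting that accompanies cancer. The sources used here do not give strain, sex, age, dose, the number and timing of injections or what the control mice received, and no label names a transgene, a deletion or a tumour for any of the 6 libraries. Whether every library is a separate animal is not stated, and p-values therefore cover only the library-to-library spread, which may be technical. The 10 genes were chosen by their pathway and on the measured inosine-to-control differences of these libraries, in which the coactivators stood out, so their differences between groups are given as a description, and the p-values printed are those of the fit over all genes.

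PGC-1 coactivators do not bind DNA themselves. They dock on transcription factors such as NRF1, GABP and the estrogen-related receptors and raise transcription of nuclear genes for the respiratory chain and for the machinery that copies and transcribes mitochondrial DNA. In liver PGC-1α, the product of Ppargc1a, is known for its induction in fasting and its part in gluconeogenesis, fatty acid oxidation and heme synthesis. PGC-1β, from Ppargc1b, is known as a partner of SREBP factors in lipid synthesis and lipoprotein export as well as of the estrogen-related receptors. PRC, from Pprc1, is the member that is expressed widely and induced early by serum and by metabolic stress in cultured cells.

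The 3 coactivator genes differed from control in opposite directions, while most of the factors they work with showed no separation between the groups. Pprc1 was about 2-fold higher in inosine livers and Ppargc1a higher by a smaller step, whereas Ppargc1b was lower by more than a factor of 2 in the mean. Nrf1 also lay higher in each inosine library, and Tfam, Tfb1m, Tfb2m, Polrmt, Gabpa and Esrra overlapped between the groups. At an adjusted p under 0.05, edgeR's quasi-likelihood test called 0 of the 10 genes, where it called 0.00811% of all genes. The only gene called was Crebrf, which encodes a regulator of the transcription factor CREB3, with 14.9, 15.6 and 13.3 CPM (counts divided by the TMM-scaled library size) in inosine livers, against 38.6, 33.1 and 37.7 CPM in control livers. At an unadjusted p under 0.05 edgeR had 2 of the 10 higher, where it had 7.21% of all genes, and 1 lower, where it had 7.26%. DESeq2 called 1 of the 10 higher, Pprc1, and 1 lower, Ppargc1b, where it called 0.892% of all genes higher and 0.917% lower. In all, 3 of the 10 genes had every inosine library above every control library, as did 11.1% of all genes, and 1 had every inosine library below, as did 9.8%. Taking both directions together, the 4 genes with groups apart stand beside 20.9% of all genes, and the 2 called by DESeq2 beside 1.81%. Of the 10 genes in the authors' deposited table, 1 has a q-value under 0.05 and is higher, as are 0.575% of the genes with a q-value there, and 1 is lower, as are 0.594%. These shares use the same contrast that was known when the genes were picked, and nothing is read from them. In whole tissue, fewer cells of a type and less RNA per cell cannot be told apart.

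The promoters of 4 of the 10 genes are shown, to set coactivator genes whose groups lay apart beside genes whose groups did not: Pprc1 and Ppargc1a, which lay higher in the inosine libraries, and Tfam and Polrmt, the mitochondrial packaging factor and RNA polymerase genes whose groups overlapped. Each is the 250 bases before a single annotated start of the gene, 5′ to 3′ on the strand of the gene. They were taken from RefSeq on GRCm38.p6, an older build than the GRCm39 coordinates of the deposited table. Other starts, such as those of the alternative first exons of Ppargc1a, are not covered. Capitals mark short motifs: AGGTCA, a core element of nuclear receptor sites, in Pprc1; TGACG, the core of the cAMP response element (CRE), read on the other strand in Ppargc1a; CCGGAAG, the site type bound by GABP and other ETS factors, in Tfam and on the other strand in Polrmt; GGGCGG, the GC box, on the other strand in Tfam; and TGCGCA, the core of the NRF1 site, in Polrmt.
Pprc1 (chr19:46056289-46056538, plus strand): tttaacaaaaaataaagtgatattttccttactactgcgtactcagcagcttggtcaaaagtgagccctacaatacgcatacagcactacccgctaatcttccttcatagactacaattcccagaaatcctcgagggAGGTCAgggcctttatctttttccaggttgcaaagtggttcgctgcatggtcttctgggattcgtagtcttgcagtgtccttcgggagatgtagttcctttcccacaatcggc
Ppargc1a (chr5:51567726-51567975, minus strand): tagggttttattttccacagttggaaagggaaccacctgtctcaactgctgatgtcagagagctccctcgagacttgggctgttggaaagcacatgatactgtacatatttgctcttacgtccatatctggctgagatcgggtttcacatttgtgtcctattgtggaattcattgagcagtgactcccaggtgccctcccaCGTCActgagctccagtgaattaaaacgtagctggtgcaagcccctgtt
Tfam (chr10:71238045-71238294, minus strand): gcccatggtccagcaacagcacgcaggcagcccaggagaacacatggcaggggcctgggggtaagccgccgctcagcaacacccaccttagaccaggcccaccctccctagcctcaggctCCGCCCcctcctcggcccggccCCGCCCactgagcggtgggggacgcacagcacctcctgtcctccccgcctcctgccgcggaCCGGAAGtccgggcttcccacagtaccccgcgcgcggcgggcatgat
Polrmt (chr10:79746582-79746831, minus strand): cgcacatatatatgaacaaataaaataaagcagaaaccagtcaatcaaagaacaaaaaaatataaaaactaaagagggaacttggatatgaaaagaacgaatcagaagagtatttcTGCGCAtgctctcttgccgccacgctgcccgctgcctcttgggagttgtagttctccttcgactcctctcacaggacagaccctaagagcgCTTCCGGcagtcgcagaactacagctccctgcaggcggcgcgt

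RefSeq promoters were matched for 9 of the 10 genes, all but Ppargc1b, in 10 sequences, and 8 motifs were searched on both strands. The NRF1 core TGCGCA stood in the promoters of Esrra, Polrmt and Tfb2m, and in 6.43% of all 32851 promoters of the same length. The ETS motif CCGGAAG stood in Gabpa, Polrmt and Tfam, and in 6.91% of all promoters. Polrmt held both, 134 and 43 bases before its start. The CRE core TGACG, which TGACGTCA contains, stood 49 bases before the start of Ppargc1a and at 2 places in Tfb1m, and in 17.8% of all promoters. AGGTCA stood 113 bases before the start of Pprc1 and in 14% of all promoters. The GC box GGGCGG stood in Esrra, Nrf1, Tfam, Tfb1m and Tfb2m, and in 32.7% of all promoters. The full CRE TGACGTCA, the estrogen-related receptor site TCAAGGTCA, which contains AGGTCA, and the E-box CACGTG were in 0 of the 10 sequences, against 1.55%, 0.387% and 6.02% of all promoters. Among these motifs Pprc1 and Ppargc1a shared none in the windows searched. A match is a run of letters in this window and was not tested as a binding site.

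Pprc1 (gene ID 226169, chromosome 19, 46044955 to 46061348 on GRCm39) encodes PRC, the largest coactivator of the family. It measured 15.2, 20.7 and 20.3 CPM in inosine livers, against 9.74, 9.78 and 8.34 CPM in control livers. The lowest inosine library stood clear of the highest control, and inosine 1 was the lowest of the 3 inosine libraries. The means were 18.7 ± 3.07 CPM in inosine and 9.29 ± 0.821 CPM in control (SD, n = 3 each), a ratio of 2.02. This is a log2 fold change of 1.01 (SE 0.15, 95% interval 0.67 to 1.35, edgeR adjusted p = 0.083), and DESeq2 called it (adjusted p = 1.8e-05). Over the 6 omissions of a library the edgeR log2 fold change lay between 0.93 and 1.14. In the authors' deposited table its log2 fold change of inosine over control is 1.02 with a q-value of 2.9e-05. Of all genes tested, 0.503% had a higher log2 fold change than Pprc1. By unadjusted p it ranked 17 of 12326.

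Ppargc1a (gene ID 19017, chromosome 5, 51611591 to 52273337) encodes PGC-1α. It measured 14.7, 14.2 and 15.7 CPM in inosine livers, against 12.2, 11.0 and 10.1 CPM in control livers. The 3 inosine libraries lay close together and above all 3 controls, by a gap smaller than that of Pprc1. The log2 fold change was 0.42 (SE 0.11, 95% interval 0.17 to 0.67, edgeR adjusted p = 0.18), and neither edgeR nor DESeq2 (adjusted p = 0.19) called it. Over the omissions of a library the value stayed between 0.36 and 0.50. The deposited table gives 33 transcripts for this gene, which is known for alternative first exons and splice forms, and the counts do not separate them.

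Ppargc1b (gene ID 170826, chromosome 18, 61424516 to 61533846) encodes PGC-1β and ran the other way. It measured 6.75, 7.79 and 9.10 CPM in inosine livers, against 11.3, 18.5 and 23.9 CPM in control livers. The inosine libraries lay close together and below all 3 controls, while the controls were spread widely, with control 1 nearest to the inosine range. It rests on 120 to 146 counts a library in inosine and 186 to 408.96 in control. The means were 7.88 ± 1.18 CPM in inosine and 17.9 ± 6.33 CPM in control (SD, n = 3 each). The coefficient of variation of this gene was 35.4% in control, where the other 9 genes had between 2.55% and 18.6%. On the log2 scale the fold change was -1.18 (SE 0.26, 95% interval -1.79 to -0.58, edgeR adjusted p = 0.14). DESeq2 called it (adjusted p = 0.0011), and the authors' deposited table gives -1.18 with a q-value of 0.0016. Of all genes tested, 0.479% had a lower log2 fold change. The gene overlaps Pde6a, a gene at a mean of 0.0486 CPM here, over 2183 bases.

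The size of the Ppargc1b difference depended on which control library was left out. Control 1 stood apart from the other controls on some clock genes. Nr1d1, the clock repressor REV-ERBα, measured 14.0, 9.51 and 11.9 CPM in inosine livers, against 5.63, 64.4 and 33.3 CPM in control livers. Dbp, a clock output factor, measured 65.8, 55.0 and 40.8 CPM in inosine livers, against 19.4, 158 and 141 CPM in control livers. Arntl, the clock activator also called Bmal1, measured 1.80, 1.60 and 3.12 CPM in inosine livers, against 11.0, 1.56 and 0.875 CPM in control livers. So control 1 was lowest of all 6 libraries on Nr1d1 and Dbp and highest on Arntl, and it was the lowest control on Ppargc1b. Not every clock gene showed this: on Per1 and Hlf control 1 lay between the other controls. Without control 1 the difference of Ppargc1b was larger and passed edgeR (log2 fold change -1.42, adjusted p = 0.035). Without control 3 it was smaller (-0.91, edgeR adjusted p = 0.30) and DESeq2 no longer called it (adjusted p = 0.073). Of 18 clock genes tested, 1 had groups that did not overlap, where 20.9% of all genes did. It was Per2, a clock repressor, with 111, 115 and 118 CPM in inosine livers, against 78.9, 73.1 and 73.7 CPM in control livers (log2 fold change 0.61, SE 0.07, edgeR adjusted p = 0.053). DESeq2 called Per2 (adjusted p = 2.2e-06) and no other clock gene, where it called 1.81% of all genes. With a library left out, Per2 passed edgeR only without control 1 (adjusted p = 0.035). At an unadjusted p under 0.05 edgeR had 3 clock genes higher and 1 lower, where it had 7.21% and 7.26% of all genes. These were Hlf (0.26) and Per1 (0.40) beside Per2, and Bhlhe41 (-2.08), named after its values were seen, and the median over the 18 was -0.12. The sources used here do not give the hour at which tissue was taken, and the part of clock phase in the result was not tested.

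**Figure D1:**
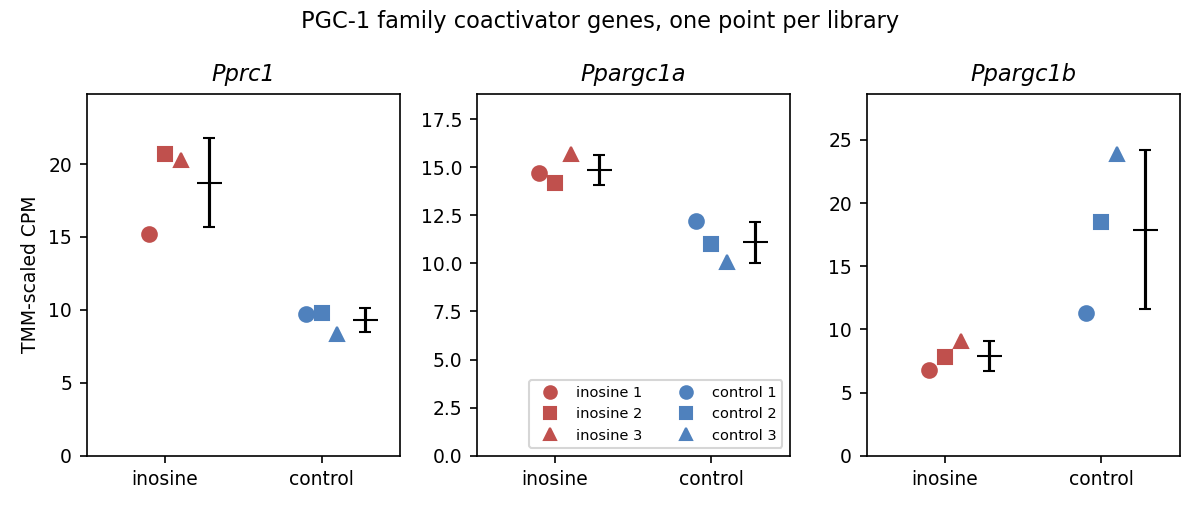
TMM-scaled CPM of Pprc1, Ppargc1a and Ppargc1b in each of the 3 inosine and 3 control libraries (points), with mean and SD as black bars; each panel has its own axis from 0. Pprc1 and Ppargc1a lay higher in all 3 inosine libraries, and Ppargc1b lay lower, with the controls spread from 11.3 to 23.9 CPM.

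The same values can be described as a mix of coactivator transcripts, which adds no separate evidence. On the per-length scale of TPM (transcript abundance corrected for length and depth), Pprc1 averaged 5.06 ± 0.922 TPM in inosine and 2.36 ± 0.201 TPM in control, Ppargc1a 3.13 ± 0.0971 TPM in inosine and 2.26 ± 0.244 TPM in control, and Ppargc1b 1.02 ± 0.11 TPM in inosine and 2.20 ± 0.76 TPM in control (SD, n = 3 each). The control livers thus held the 3 transcripts at similar mean levels, and in inosine livers they were ordered Pprc1, Ppargc1a, Ppargc1b in each library. Of the summed coactivator TPM, Ppargc1b made up 10.8%, 10.5% and 11.9% in inosine livers, against 22.0%, 32.5% and 41.3% in control livers. Pprc1 made up 50.9%, 58.4% and 54.9% in inosine livers, against 39.0%, 35.3% and 30.0% in control livers. The share of Ppargc1a overlapped, with 38.3%, 31.1% and 33.2% in inosine livers and 39.0%, 32.2% and 28.7% in control livers. The sum itself was 9.21 ± 1.05 TPM in inosine and 6.83 ± 0.326 TPM in control (SD, n = 3 each).

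A ratio of genes within a library does not depend on how the library was scaled. The log2 ratio of Pprc1 to Ppargc1b CPM was 1.17, 1.41 and 1.15 in inosine livers, against -0.21, -0.92 and -1.52 in control livers. That of Ppargc1a to Ppargc1b was 1.13, 0.87 and 0.79 in inosine livers, against 0.12, -0.74 and -1.24 in control livers. Pprc1 over Ppargc1a gave 0.04, 0.55 and 0.37 in inosine livers, against -0.33, -0.17 and -0.27 in control livers. For the ratios to Ppargc1b this separation follows from the values of the single genes given above, and the ratios are a description on a scale free of library size.

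Among the DNA-binding partners, Nrf1 lay slightly higher and the other pair showed no separation. Nrf1 (nuclear respiratory factor 1, not the Nfe2l1 product that shares the short name) measured 7.82, 9.91 and 8.42 CPM in inosine livers, against 7.44, 7.32 and 5.78 CPM in control livers. The inosine libraries lay above all controls by a narrow gap (log2 fold change 0.35, SE 0.15, edgeR adjusted p = 0.35). Gabpa, the DNA-binding subunit of GABP, measured 56.5, 62.0 and 52.2 CPM in inosine livers, against 58.5, 54.4 and 64.9 CPM in control livers, with overlapping groups. Esrra, the estrogen-related receptor alpha, measured 27.9, 28.9 and 27.1 CPM in inosine livers, against 23.4, 31.0 and 32.0 CPM in control livers. Its inosine libraries lay inside the control range, and control 1 was again the lowest control. The 95% intervals of the log2 fold change were -0.28 to 0.17 for Gabpa and -0.33 to 0.24 for Esrra. Gabpa overlaps Atp5j, at a mean of 159 CPM, over 3159 bases, and Esrra overlaps Trmt112, at a mean of 26.8 CPM, over 52 bases. The sources used here do not say whether the libraries kept strand, so reads of these pairs may not be told apart.

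None of the 4 genes that act inside mitochondria separated the groups. Tfam, which packages mitochondrial DNA and opens its promoters, measured 60.6, 60.3 and 55.3 CPM in inosine livers, against 57.9, 55.0 and 56.3 CPM in control livers (log2 fold change 0.06, 95% interval -0.11 to 0.23). Polrmt, the mitochondrial RNA polymerase, measured 17.1, 17.4 and 17.3 CPM in inosine livers, against 15.7, 18.5 and 15.9 CPM in control livers (0.05, 95% interval -0.18 to 0.28). Both had groups that overlapped, and a change of 1.5-fold lies outside both intervals. Tfb2m, the initiation factor that melts the promoter, measured 42.0, 45.0 and 41.3 CPM in inosine livers, against 44.4, 30.9 and 35.6 CPM in control livers. Control 1 lay inside the inosine range here, and the log2 fold change was 0.21 (95% interval -0.09 to 0.51, edgeR adjusted p = 0.49). Tfb1m, an rRNA methyltransferase of the mitochondrial small ribosomal subunit, measured 8.39, 8.36 and 9.48 CPM in inosine livers, against 9.14, 8.46 and 9.04 CPM in control livers (-0.02, 95% interval -0.28 to 0.24). Its counts were not whole, such as 148.85 in inosine 1, and it overlaps Tiam2 over 554 bases and Cldn20 over 660 bases.

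**Figure D2:**
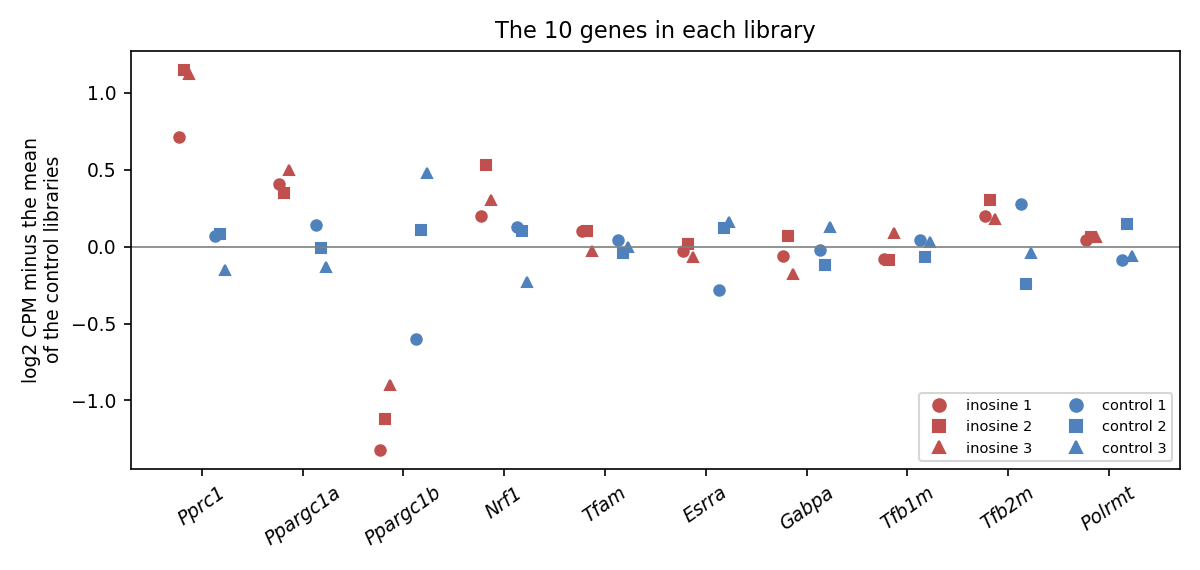
Log2 CPM (prior count 2) of each of the 10 genes in each library, minus the mean of the 3 control libraries. The inosine points lie above the controls for Pprc1, Ppargc1a and Nrf1 and below them for Ppargc1b, and the other 6 genes overlap.

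By level, the coactivators and Nrf1 were the rarest transcripts of the set. Averaged over 6 libraries, Tfb2m stood highest at 24.0 TPM, followed by Tfam at 20.4, Esrra at 18.7, Gabpa at 16.6, Tfb1m at 9.62 and Polrmt at 6.25 TPM. Pprc1 followed at 3.71, Nrf1 at 3.54, Ppargc1a at 2.69 and Ppargc1b at 1.61 TPM. Neighbours from Tfb2m down to Gabpa overlapped over the 3 libraries of either group, so their order was not resolved. Gabpa, Tfb1m and the gene after it were separated in both groups. In inosine livers Pprc1 overlapped both Polrmt above it and Nrf1 below it, and Ppargc1a and Ppargc1b followed with no overlap. In control livers Nrf1 stood above Pprc1 with no overlap, while Pprc1, Ppargc1a and Ppargc1b overlapped in turn. Of all genes tested, 25.5% had a higher mean TPM than Tfb2m and 81.1% a higher one than Ppargc1b.

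**Figure D3:**
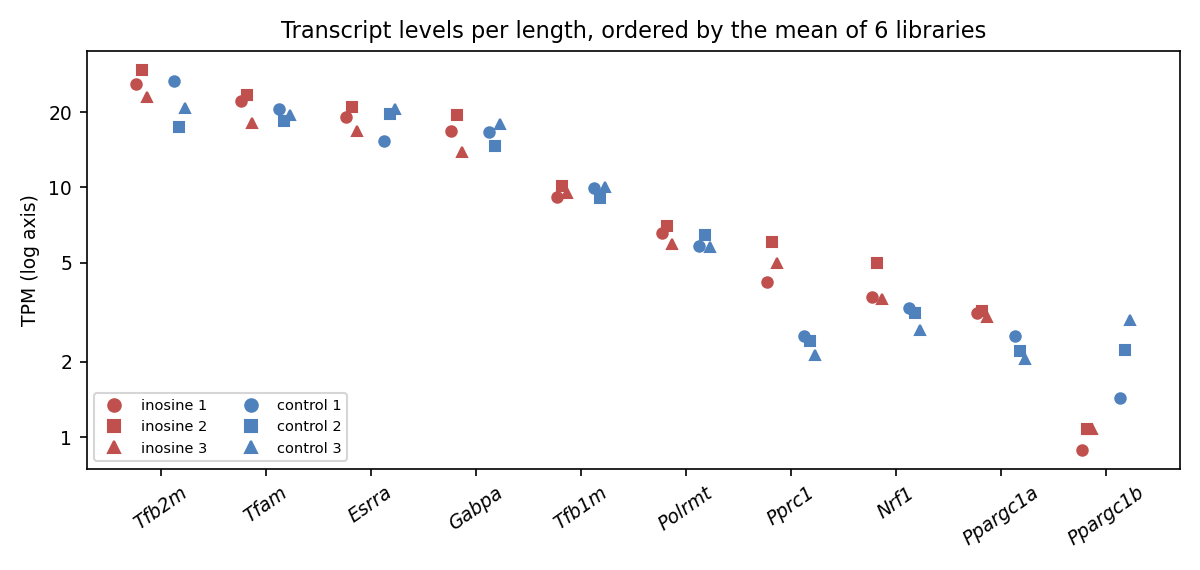
Deposited TPM of the 10 genes in each library on a log axis, ordered by the mean of 6 libraries. Tfb2m, Tfam, Esrra and Gabpa lie together near the top, and the coactivators and Nrf1 lie lowest, with Ppargc1b between 0.89 and 2.95 TPM.

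Outside the 10 genes, 153 other genes tested in 9 lists of the pathway were examined. EdgeR called 0 of them at an adjusted p under 0.05, with 16 higher and 5 lower at an unadjusted p under 0.05, where 7.21% and 7.26% of all genes were. DESeq2 called 4 of the 153, all higher, where it called 0.892% of all genes higher and 0.917% lower. Their median log2 fold change was 0.04, against -0.01 over all genes tested.

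Nuclear partners of the coactivators had a median of 0.06 over 16 genes, with 3 higher and 1 lower at an unadjusted p under 0.05. Hnf4a, the hepatocyte nuclear receptor through which PGC-1α acts on gluconeogenic genes, measured 735, 710 and 794 CPM in inosine livers, against 541, 489 and 495 CPM in control livers (log2 fold change 0.55, SE 0.10, edgeR adjusted p = 0.087, DESeq2 adjusted p = 2.6e-05). Its groups were well apart. Myc, a growth-linked transcription factor gene, measured 2.98, 3.32 and 3.93 CPM in inosine livers, against 4.72, 6.06 and 5.02 CPM in control livers (-0.63, SE 0.18, edgeR adjusted p = 0.21). Foxo1, a fasting-active factor that PGC-1α coactivates, stood at 0.55 (SE 0.21, edgeR adjusted p = 0.31).

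Among 14 proteins known to act on PGC-1α or its gene the median was 0.15, with 3 higher and 0 lower at an unadjusted p under 0.05. Akt1, a kinase gene of insulin signalling, measured 76.5, 77.9 and 75.3 CPM in inosine livers, against 52.5, 56.1 and 59.3 CPM in control livers (log2 fold change 0.45, SE 0.07, edgeR adjusted p = 0.083, DESeq2 adjusted p = 0.0033). The arginine methyltransferase gene Prmt1 stood at 0.45 (SE 0.14) and Mybbp1a, which encodes a repressor of PGC-1α, at 0.22 (SE 0.08). The widest scatter was in Lpin1, a phosphatidate phosphatase and PGC-1α partner chosen here after its values were seen, with 95.3, 150 and 350 CPM in inosine livers and 217, 30.0 and 80.2 CPM in control livers.

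Among the lists that act inside mitochondria, the 7 other genes listed for mitochondrial transcription had the lowest median, -0.24, with 6 of the 7 below 0. The other 4 lists lay between 0.00 and 0.08. The transcription list counts Mterf1a and Mterf1b separately and includes Mrpl12, a mitochondrial ribosomal protein gene, at 0.11. This list had 0 higher and 1 lower at an unadjusted p under 0.05. The lower one was Mterf2, a termination factor relative, with 4.67, 3.72 and 3.37 CPM in inosine livers, against 5.33, 5.16 and 6.36 CPM in control livers (log2 fold change -0.52, SE 0.18, edgeR adjusted p = 0.26). Its relatives Mterf1a and Mterf4 stood at -0.41 and -0.24, and 4 of the 7 genes had every inosine library below every control, as did 9.8% of all genes. Replication and maintenance of mitochondrial DNA (17 genes) had a median of 0.00 to 2 decimals, with 0 higher and 3 lower: Polg2, the accessory subunit of the DNA polymerase (-0.42, SE 0.13), the primase gene Primpol (-0.49, SE 0.17) and the topoisomerase gene Top1mt (-0.25, SE 0.11). Polg itself, the catalytic subunit, named after its values were seen, measured 45.8, 48.4 and 46.3 CPM in inosine livers, against 43.5, 43.9 and 45.0 CPM in control livers.

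Processing of mitochondrial RNA had 4 of 24 genes higher and 0 lower at an unadjusted p under 0.05 with a median of 0.08. Trmt10c, the tRNA methyltransferase subunit of mitochondrial RNase P, measured 30.5, 35.2 and 34.0 CPM in inosine livers, against 23.4, 23.7 and 22.6 CPM in control livers (log2 fold change 0.52, SE 0.08, edgeR adjusted p = 0.083, DESeq2 adjusted p = 0.0057). Nsun4, an rRNA methyltransferase gene, stood at 0.29 (SE 0.12) and Tbrg4, of the FASTK family, at 0.19 (SE 0.08). Import of proteins into mitochondria had 3 of 28 genes higher and 0 lower, with a median of 0.05. These were the outer membrane receptor genes Tomm20 (0.31, SE 0.07, edgeR adjusted p = 0.15) and Tomm70a (0.26, SE 0.08) and the intermembrane space import factor gene Chchd4 (0.52, SE 0.16). Of 10 mitochondrial translation factors 0 passed an unadjusted p under 0.05, with a median of 0.03 and values from -0.12 for Mtif3 to 0.14 for Mtrf1.

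Of 20 genes known as NRF1 or GABP targets, mainly of the respiratory chain, 1 was higher and 0 lower at an unadjusted p under 0.05. The median was -0.01. The higher gene was Alas1, the rate-limiting enzyme of liver heme synthesis and a known target of PGC-1α as well, with 1310, 1690 and 1610 CPM in inosine livers, against 939, 647 and 774 CPM in control livers. On the log2 scale it stood at 0.97 (SE 0.17, edgeR adjusted p = 0.087, DESeq2 adjusted p = 1.9e-06). Over the omissions of a library it lay between 0.84 and 1.12 (edgeR adjusted p 0.040 to 0.28). It passed edgeR only without control 1, where edgeR called 56 of all genes. Sdhd and Cox5a, subunits of the respiratory chain, stood at 0.23 (SE 0.10) and 0.15 (SE 0.08). Of 19 genes linked to PGC-1α in liver, as targets or partners, 2 were higher and 0 lower, with a median of 0.14. These were Cpt1a, which admits fatty acids to mitochondria (0.37, SE 0.14, edgeR adjusted p = 0.30), and Gys2, the liver glycogen synthase (0.27, SE 0.11). Fbp1, a gluconeogenic phosphatase gene, stood at 0.17 (SE 0.12).

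**Figure D4:**
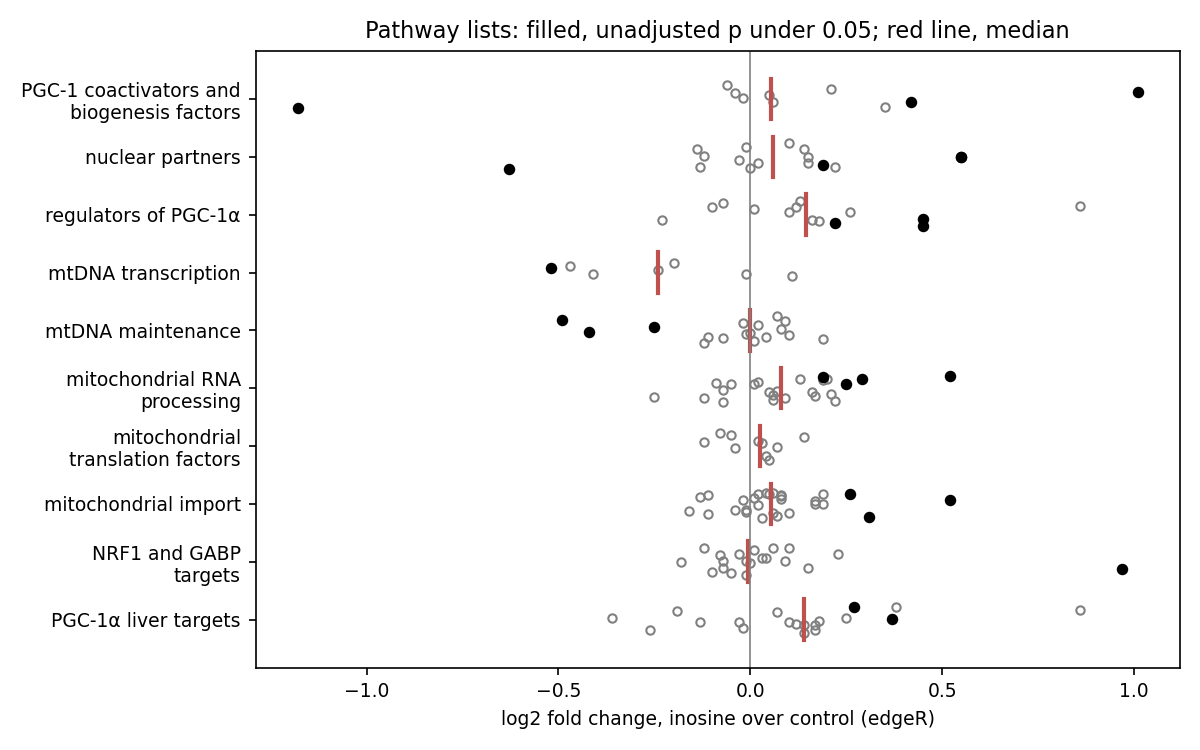
Log2 fold change (edgeR, inosine over control) of each gene tested in the set of 10 and in 9 lists of the pathway; filled points have an unadjusted p under 0.05 and the red line marks each list's median. Ppargc1b, Pprc1 and Alas1 stand farthest out among the filled points, at -1.18, 1.01 and 0.97, and the medians of the lists lie between -0.24 and 0.15.

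The genes whose pattern over the 6 libraries lay nearest to that of Pprc1 were sought among 11690 genes with a mean of at least 1 CPM, by the root mean square difference of log2 CPM after centring on the control mean. The nearest was Atf3, a stress-induced transcription factor gene, at 0.0895, with 2.70, 4.18 and 3.49 CPM in inosine livers, against 1.94, 1.80 and 1.46 CPM in control livers. Next came Arhgef26, a guanine nucleotide exchange factor gene, at 0.144, and Trmt61a, a tRNA methyltransferase gene, at 0.147. Ppan, a nucleolar ribosome assembly factor gene, followed at 0.154, and Hspa5, the chief chaperone of the endoplasmic reticulum, at 0.161, with 793, 882 and 1190 CPM in inosine livers, against 522, 442 and 457 CPM in control livers. The 5 had log2 fold changes between 0.97 and 1.01, which follows from the choice, since the measure includes the difference between the groups. Of the other members, Ppargc1a ranked 256 by this measure, Nrf1 360 and Ppargc1b 11612. All points come from the same 6 libraries.

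**Figure D5:**
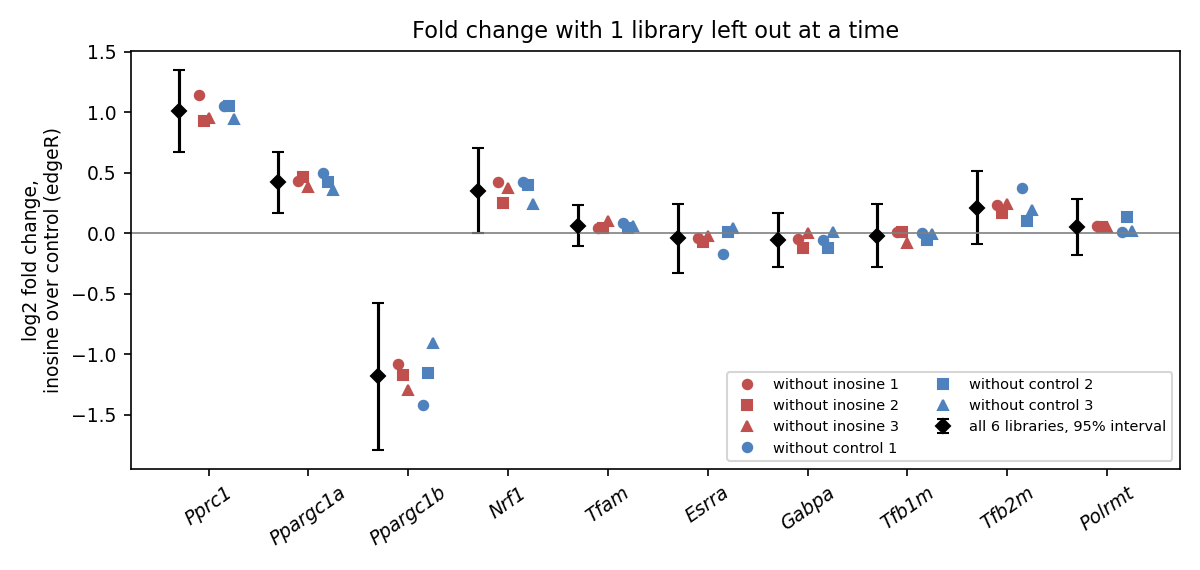
Log2 fold change of each of the 10 genes from all 6 libraries with its 95% interval (black), and with each library left out in turn (coloured). Ppargc1b moves most, between -1.42 without control 1 and -0.91 without control 3, and Pprc1 stays between 0.93 and 1.14.

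Facts of the libraries that touch these values are given together. The libraries held 16862048 to 17505035 counts in inosine and 16383896 to 17009895 in control. Hepatocyte markers were abundant, the 10 of them summing to between 140000 and 155000 CPM in inosine livers and between 118000 and 150000 CPM in control livers. Of 10 stellate markers 10 had a log2 fold change below 0 (sum 273 to 425 CPM in inosine, 383 to 434 CPM in control), of 10 endothelial markers 9 (189 to 279 CPM in inosine, 273 to 310 CPM in control) and of 10 Kupffer markers 9 (297 to 346 CPM in inosine, 305 to 433 CPM in control). Among all 12326 genes tested, 6387 had a log2 fold change below 0. Erythroid markers summed to 306 to 506 CPM in inosine and 646 to 852 CPM in control, and cholangiocyte markers to 38.8 to 57.7 CPM in inosine and 30.2 to 37.9 CPM in control. Leukocyte markers summed to 3.55 to 9.57 CPM in inosine and 4.78 to 11.5 CPM in control. Of 9 adipocyte and muscle markers 2 were in the table, at a sum of 2.98 to 4.93 CPM in inosine and 4.61 to 7.32 CPM in control. No marker in the table was at 0 in all 6 libraries. All 5 erythroid markers tested were lower at an unadjusted p under 0.05 in edgeR, where 7.26% of all genes were. The part of these cells in the values of the 10 genes was not tested.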

How the data were processed

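Liver RNA was sequenced in 3 inosine and 3 control libraries. Per the submitters' processing notes, Bowtie2 and RSEM were used with GRCm39, without versions or roles. The deposited table of 16375 genes holds the authors' estimated counts, of which 89.8% to 90.3% in a library are whole. It also holds TPM and FPKM values that the authors scaled per length and depth, per the file headers. TPM gave the levels, and rescaled FPKM served as a check on their order. The authors' log2 fold changes, p-values and q-values are deposited beside them, and the headers of the p-values and q-values name DESeq2. They come from the same libraries as the DESeq2 results here and are not separate evidence. All 18 per-sample columns were mapped.

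Counts were rounded, filtered with filterByExpr, scaled by TMM and tested by edgeR 4.0.16's quasi-likelihood test in R 4.3.3, with Benjamini-Hochberg adjustment over 12326 genes. DESeq2 1.42.0 and limma 3.58.1 were alternatives. The edgeR steps after the filter were also run on simulated counts with known fold changes, using dispersions estimated from these libraries. A zero allows up to 3 counts, or 0.171 to 0.183 CPM, for counting error only. The members and lists were chosen with earlier results of these data known. Named were the 10 members, Crebrf, from each pathway list and the clock list up to 3 genes of lowest p, the clock genes Dbp, Nr1d1 and Arntl, and the 5 genes nearest to Pprc1. Gene strand came from RefSeq, since the deposited strand column differs from it for 1469 of 12893 genes compared.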

Additional observations from a re-analysis of the deposited data

How the results depend on the processing

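Over all genes edgeR's 1 call became 223 with DESeq2, 9 with no filter on low counts, 6 with limma-voom and 0 with the replicate block; leaving out a library gave 0 to 56, the 56 without control 1. The 0 calls among the 10 genes became 2 with DESeq2 and lay between 0 and 1 with a library left out, and the 0 calls among the pathway lists became 4 with DESeq2 and lay between 0 and 1; the calls without control 1 were Ppargc1b and Alas1. No label says that replicate numbers pair the libraries. Deviations of same-numbered libraries correlated at -0.04, -0.03 and -0.02, and those of other-numbered libraries between -0.08 and 0.12. With 3 libraries a group these values cannot decide whether the numbers pair them. With the replicate block Pprc1 stood at 1.0 (edgeR adjusted p = 0.20) and Ppargc1b at -1.13 (edgeR adjusted p = 0.20). With no filter on low counts the edgeR adjusted p of Pprc1 was 0.051.

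The sign turned only in genes near 0. Over the omissions of a library Esrra ranged from -0.17 to 0.04, Gabpa from -0.12 to 0.01 and Tfb1m from -0.08 to 0.01. The causes were not tested. In an alternative chosen after seeing the data, DESeq2 called Pprc1 with any 1 library left out (adjusted p 8.3e-08 to 0.0028), and lost Ppargc1b without control 3 (0.073, range 1.5e-08 to 0.073). With 3 libraries a group, no result rests on more than 6 values, and intervals of the overlapping genes allow differences of up to 0.51 on the log2 scale.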

Other observations

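Genes of lipid synthesis and lipoprotein assembly and their regulators, a field in which PGC-1β is a known SREBP partner, were looked at after the values of Ppargc1b had been seen. Of 16 tested, edgeR had 0 higher and 5 lower at an unadjusted p under 0.05, against 7.21% and 7.26% of all genes, and called 0 after adjustment, as did DESeq2. The median log2 fold change was -0.15, with 11 genes below 0 and 5 above. Of the 16, 2 had every inosine library below every control, as did 9.8% of all genes. In 0 of them every inosine library lay above, as in 11.1% of all genes. Srebf1, which encodes the SREBP-1 factors, averaged 231 ± 47 CPM in inosine and 344 ± 107 CPM in control (SD, n = 3 each). Its groups overlapped, with control 1 at 229 CPM inside the inosine range of 193 to 283 CPM. Acss2, an acetyl-CoA synthetase gene, averaged 91.6 ± 13.7 CPM in inosine and 139 ± 38.3 CPM in control (SD, n = 3 each). Fasn, Acly and Acaca, which carry out the steps from citrate to palmitate, had log2 fold changes of -0.44, -0.54 and -0.40, with groups that overlapped. The desaturase gene Scd1 stood at 0.37 and the elongase gene Elovl6 at 0.03, Me1, the malic enzyme that supplies NADPH, at 0.00, and Thrsp at -0.07. Of the lipoprotein genes, Apob stood at 0.12, Mttp at 0.10 and Apoc3 at -0.11, and Srebf2, the cholesterol-linked SREBP gene, at 0.17.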
